A study of Mus musculus with 24 samples.

Results

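Tbx2, Tbx3, Tbx15 and Tbx18, the T-box transcription factor genes that limb mesenchyme is known to use besides the limb identity genes Tbx4 and Tbx5, were examined for H3K27ac in mouse limb buds. H3K27ac is an acetylation of histone H3 found at active promoters and enhancers, and it was mapped by chromatin immunoprecipitation and sequencing. The 4 genes were taken by name from the 21883 protein-coding genes of the annotation. Peaks were taken from a window of the gene and 200 kb to its left and right. The windows held 86 regions when overlapping peaks of the 4 lists were merged, of 49367 such regions in the genome. The groups were Sox9cKO limb buds at E12.5, Sox9null limb buds at E11.5, control limb buds at E12.5 and control limb buds at E11.5, where E11.5 and E12.5 are days of embryonic development. Sox9 encodes a transcription factor required for cartilage formation, and the study set embryos deficient in it against controls. Each group had 1 library and 1 peak list, so no difference was tested. For the Sox9 alleles, the promoter driving any Cre, the strain, the number of embryos in a library and the mixture of fore and hind limb buds, the sources used here give no detail.

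T-box factors share a DNA-binding domain, the T-box, which recognises a short sequence with the core GGTGT. Tbx2 and Tbx3 are closely related transcriptional repressors, made at the anterior and posterior margins of the limb bud, where they act with sonic hedgehog and BMP signalling on digit formation. Tbx15 and Tbx18 are related to each other, and in the mouse they act in limb mesenchyme that forms the shoulder and pelvic girdles and proximal skeleton. Tbx2 lies beside the hindlimb gene Tbx4, and Tbx3 beside the forelimb gene Tbx5, so the windows of these 2 members take in their neighbours.

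For the 2 Sox9-deficient libraries, the name of each deposited list gives the other genotype and stage than the sample title does. Titles decide the group here, these lists are called the Sox9cKO-labelled and the Sox9null-labelled list, and comparisons within a stage are also given with the lists exchanged. The Sox9cKO-labelled list held 36937 peaks over 60.4 Mb, the Sox9null-labelled list 28419 over 59.7 Mb, the E12.5 control 32821 over 66.7 Mb and the E11.5 control 36045 over 52.0 Mb. Depth in reads is unknown, and peak number and width move with it. All 7 limb mesenchyme markers, among them Prrx1, Msx1 and Hoxd13, were marked over their body plus 20 kb in every list. Over the same stretch the liver genes Alb, Afp and Hnf4a were marked in none. Of 3 heart genes, also taken as not in limb, Nkx2-5 and Nppa were marked in none. Myh6 was marked in all 4 lists, over 4.06 kb (Sox9cKO-labelled), 5.94 kb (Sox9null-labelled), 5.90 kb (E12.5 control) and 4.46 kb (E11.5 control). The lists fell into 2 kinds by Tbx5, which had 32.6 kb of peaks over its body plus 20 kb in the Sox9cKO-labelled list, 0 kb in the Sox9null-labelled list, 3.76 kb in the E12.5 control and 31.7 kb in the E11.5 control. Tbx4 and Pitx1, the hindlimb genes, were marked in all 4 lists and together had between 45.7 and 56.0 kb. Peaks over several marker lists summed to more in the 2 lists with high Tbx5, though not at every gene. Those 2 lists both exceeded both others at 2 of the 4 muscle, 2 of the 4 erythroid and 3 of the 5 endothelial genes. At 1 endothelial gene, Tek, both lay below. Both also lay below at 5 of the 7 limb mesenchyme genes and at 2 of the 2 hindlimb genes. They lay above at 1 limb mesenchyme gene. Of all protein-coding genes with a peak over body plus 20 kb, 27.6% lay above in this way and 20.5% below. The limb mesenchyme markers went the other way in sum, with 168.7 kb (Sox9cKO-labelled), 178.8 kb (Sox9null-labelled), 179.2 kb (E12.5 control) and 155.9 kb (E11.5 control). The hindlimb genes did too, with 49.4, 56.0, 52.7 and 45.7 kb. The 4 skeletal muscle genes had 8.995 kb in the Sox9cKO-labelled list, 2.48 kb in the Sox9null-labelled list, 3.48 kb in the E12.5 control and 6.16 kb in the E11.5 control, with 1, 3, 3 and 1 of the 4 genes at 0 and Myod1 at 0 in every list. The 4 erythroid genes summed to 17.2, 8.46, 6.47 and 14.3 kb and the 5 endothelial genes to 15.9, 11.9, 10.6 and 14.97 kb in the same order of lists, with at most 1 of the 4 and 2 of the 5 at 0. The 4 surface ectoderm genes had 15.3, 9.18, 16.5 and 12.3 kb, with Krt14 at 0 in every list. The part of limb type and of these cell types in the values below was not tested.

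Start-site sequences from RefSeq (GRCm38.p6, the assembly of mm10) were matched by symbol for 1 of the 4 members, Tbx18, and for the antisense genes Tbx3os1 and Tbx3os2 at Tbx3. They run from 250 bases before to 50 bases after the start of the transcript, 5′ to 3′ on the transcribed strand, which is the minus strand for all 3. They are shown because they differ in how peaks covered them, from all 300 bases in every list to none, and capitals mark the T-box core GGTGT or its reverse ACACC.
Tbx18 (chr9:87731211-87731510): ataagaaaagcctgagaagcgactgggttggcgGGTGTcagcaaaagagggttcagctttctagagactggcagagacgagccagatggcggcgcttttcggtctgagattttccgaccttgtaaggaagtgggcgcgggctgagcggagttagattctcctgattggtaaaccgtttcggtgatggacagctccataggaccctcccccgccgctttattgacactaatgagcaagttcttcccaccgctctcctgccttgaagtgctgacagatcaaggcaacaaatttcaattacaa
Tbx3os1 (chr5:119671459-119671758): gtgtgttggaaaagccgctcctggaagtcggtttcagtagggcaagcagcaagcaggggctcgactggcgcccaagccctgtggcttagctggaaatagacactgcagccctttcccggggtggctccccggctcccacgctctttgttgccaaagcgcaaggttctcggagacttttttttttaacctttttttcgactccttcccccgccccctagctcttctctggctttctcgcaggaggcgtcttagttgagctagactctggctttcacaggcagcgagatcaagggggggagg
Tbx3os2 (chr5:119691169-119691468): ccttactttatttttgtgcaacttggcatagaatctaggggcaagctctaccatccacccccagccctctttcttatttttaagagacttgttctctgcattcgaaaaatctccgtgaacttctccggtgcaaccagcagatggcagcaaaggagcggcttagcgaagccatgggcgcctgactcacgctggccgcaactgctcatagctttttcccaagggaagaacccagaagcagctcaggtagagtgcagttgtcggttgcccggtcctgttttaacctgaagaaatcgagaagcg
The Tbx18 sequence held the core once, 217 bases before the start on the printed strand, and the others did not hold it. Of 32817 such sequences in the RefSeq table, 41.6% held GGTGT on either strand. The SOX core ACAAT was in none of the 3 sequences and in 31.04% of the table. All 300 bases at Tbx18 lay within a peak in the Sox9cKO-labelled list, the Sox9null-labelled list and the E12.5 control, but 84 bases did in the E11.5 control, whose peak ended shortly upstream of the start. Those at Tbx3os1 were covered in full in all 4 lists, and those at Tbx3os2 were covered in none.

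**Figure D1:**
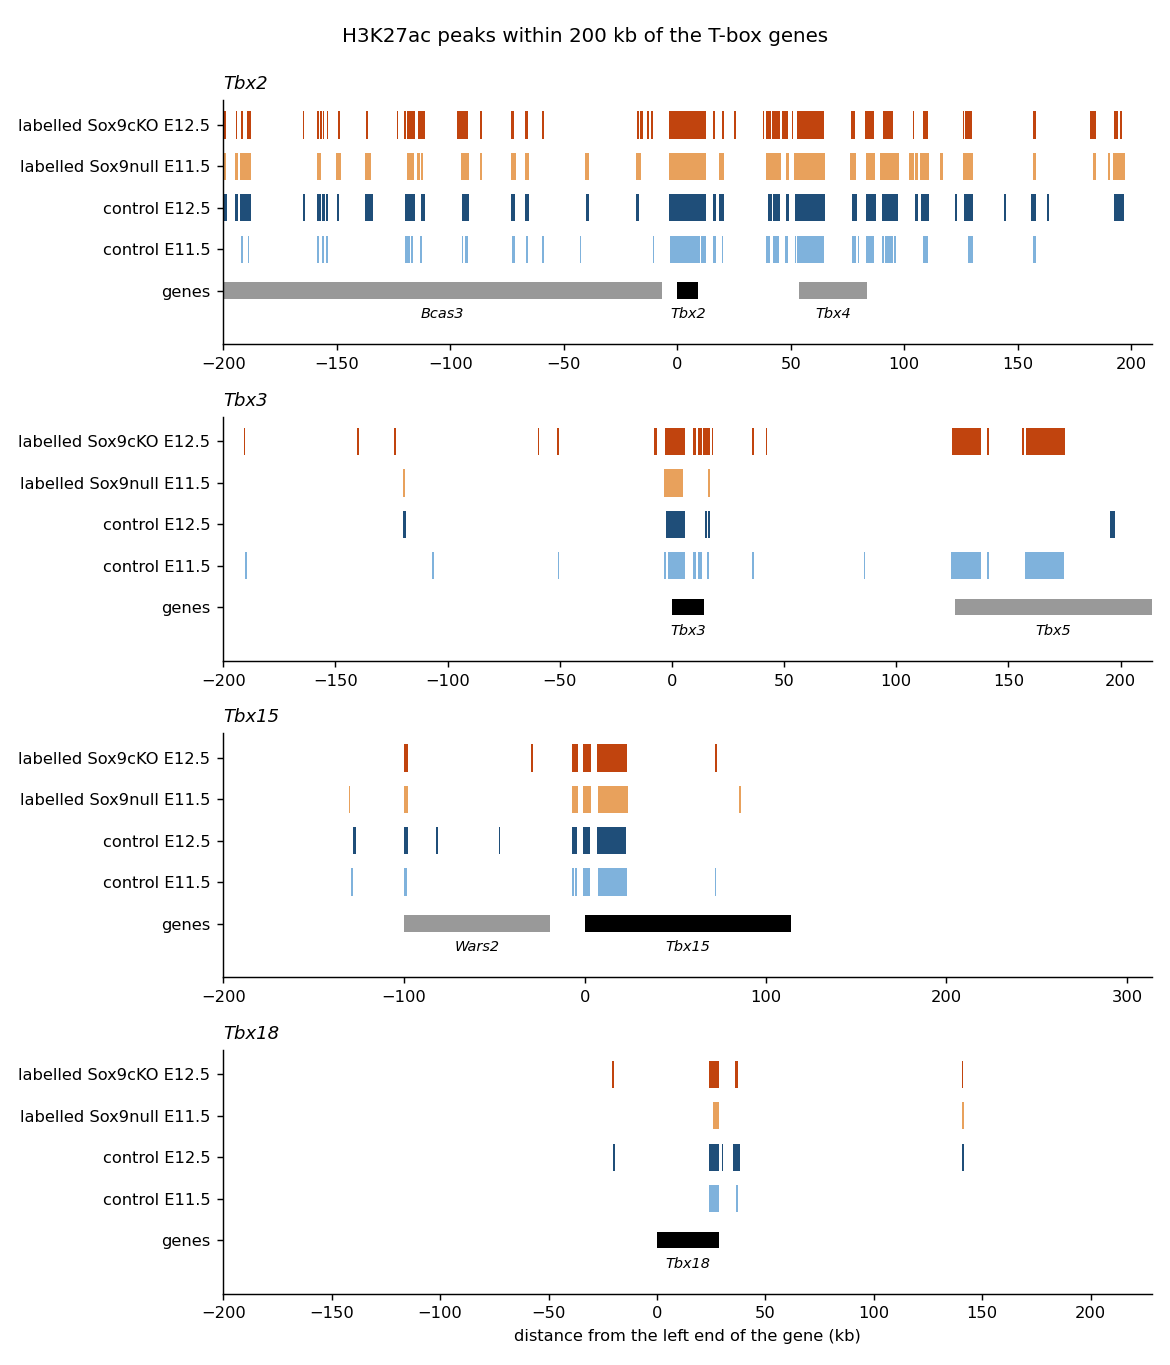
Positions of H3K27ac peaks (coloured blocks) around Tbx2, Tbx3, Tbx15 and Tbx18 in the 4 lists, with protein-coding genes as bars under them (black for the member, grey for neighbours). The x axis is the distance in kb from the end of the gene with the lower coordinate. Tbx2 lies in a densely marked window, the Tbx15 peaks look alike in all 4 lists, and the wide peaks over Tbx5 in the Tbx3 window are present in the Sox9cKO-labelled list and the E11.5 control.

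Tbx2 (chromosome 11, 85832615 to 85841948, 9334 bp) lay under a wide acetylated block in all 4 lists. The merged block at chr11:85828988-85845404 measured 16417 bp and ran over the whole gene and the right end of the lncRNA gene 2610027K06Rik. Peaks covered 100% of the gene body in the Sox9cKO-labelled list, the Sox9null-labelled list and the E12.5 control, and 98.8% in the E11.5 control. It was 1 peak of 16046 bp in the Sox9cKO-labelled list, 1 of 16417 bp in the Sox9null-labelled list and 1 of 16329 bp in the E12.5 control, which ranked 11, 30 and 32 by width in their lists. In the E11.5 control it was broken into 4 peaks, the widest of 6822 bp (rank 141), that together covered 15601 bp. Peak scores, which are the authors' own values and are used only to rank peaks within a list, did not order the lists in the same way. The block scored 3100, a value shared by many peaks, within the upper 7.94% of the Sox9cKO-labelled list. It scored 1893 (upper 6.70%) in the Sox9null-labelled list and 556 (upper 31.1%) in the E12.5 control. In the E11.5 control its 4 peaks scored from 526 (upper 28.8%) to 2884 (upper 5.35%). The E12.5 control thus had nearly the same width there with a lower rank than the other lists.

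The surroundings of Tbx2 were the most densely marked of the 4 windows. Covered length was 95.3 kb (23.3% of the window) in the Sox9cKO-labelled list, 108.5 kb (26.5%) in the Sox9null-labelled list, 103.4 kb (25.3%) in the E12.5 control and 67.0 kb (16.4%) in the E11.5 control. All 4 values lay between percentiles 99.0 and 99.7 of the same measure over all protein-coding genes. Of 49 regions, 20 (40.8%) were marked in all 4 lists, against 40.1% of regions in the genome. Of these 20, the region at chr11:85630950-85634052 crosses the left edge of the window. Its E11.5 control peak of 652 bp lies outside the window. To the left, all 23 regions lay over Bcas3, a large gene whose end is 6.56 kb from Tbx2, and 8 of them were marked in all 4 lists. To the right, the strongest region at chr11:85884123-85897732 (13610 bp) ran over the left part of Tbx4 with a score of 3100 in every list. Between the genes, a region at chr11:85874416-85878277 was marked in all 4 lists. Its scores were 2686 in the Sox9cKO-labelled list, 1837 in the Sox9null-labelled list, 1169 in the E12.5 control and 1326 in the E11.5 control. By rank within each list these lay in the upper 9.58, 7.06, 16.8 and 14.4% in that order.

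The E11.5 control stood below the other lists around Tbx2, on both sides. Left of the gene the Sox9cKO-labelled list had 34.4 kb, the Sox9null-labelled list 34.8 kb, the E12.5 control 35.6 kb and the E11.5 control 17.96 kb. Right of the gene they had 51.6, 64.4, 58.5 and 39.8 kb in that order. The E11.5 control was the only list missing from 5 of the 49 regions, where 2.93% of regions in the genome were so marked. One of these, at chr11:86024600-86029829, 183 kb right of the gene, had 2789 bp in the Sox9cKO-labelled list (score 248), 5230 bp in the Sox9null-labelled list (1182) and 4406 bp in the E12.5 control (1119), and no peak in the E11.5 control. Sparser marking in the E11.5 control was less visible near the gene, where body plus 20 kb had 22.9 kb in the Sox9cKO-labelled list, 20.9 kb in the Sox9null-labelled list, 20.9 kb in the E12.5 control and 17.8 kb in the E11.5 control. The E11.5 control also covered the least of the genome, and scaled to the mean total of the lists the window had 94.3 kb in the Sox9cKO-labelled list, 108.5 kb in the Sox9null-labelled list, 92.6 kb in the E12.5 control and 76.9 kb in the E11.5 control.

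A further 3 regions of the Tbx2 window were marked in both Sox9-deficient lists and in neither control, and 0 regions the other way, where 1.15% and 1.64% of regions in the genome were. The highest-scored of the 3, at chr11:86014632-86017280 in the lncRNA gene Gm20759, had scores of 261 and 113 in the Sox9cKO-labelled and Sox9null-labelled lists, within the upper 44.3% and 69.9%. The region at chr11:85934809-85936922 had scores of 58.3 and 181, and that at chr11:85745860-85746748, within Bcas3, of 90.2 and 52.6. The lowest scores in these lists were 50.02 and 50.01, so the peaks scored 58.3 and 52.6 lie near the lower limit of the lists.

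Tbx3 (chromosome 5, 119670534 to 119684724, 14191 bp) had an acetylated block over its left part in all 4 lists, and its other peaks differed between lists. The block at chr5:119667004-119676499 spanned the left end of Tbx3 and the start site of Tbx3os1 printed above. Peaks covered 9097 bp of it in the Sox9cKO-labelled list, 8251 bp in the Sox9null-labelled list, 8459 bp in the E12.5 control and 8477 bp in the E11.5 control. The score was 3100 in the Sox9cKO-labelled list (upper 7.94%), the E12.5 control (upper 4.38%) and the E11.5 control (upper 4.78%). In the Sox9null-labelled list it was 2344 (upper 4.69%). Over the whole gene body, however, coverage was 64.5% in the Sox9cKO-labelled list and 34.6% in the Sox9null-labelled list, against 42.0% in the E12.5 control and 61.2% in the E11.5 control.

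The right part of the Tbx3 body held peaks in some lists and not in others. A region at chr5:119679978-119681381 was marked over 1404 bp in the Sox9cKO-labelled list (score 324) and 1233 bp in the E11.5 control (score 95.0), and was free of peaks in the Sox9null-labelled list and the E12.5 control. Its neighbour at chr5:119682268-119683941 was marked over 1588 bp (score 285) and 1606 bp (score 235) in the same 2 lists. The region at the right end, chr5:119684467-119687714, which reaches into Tbx3os2, was marked in all 4 lists, over 2927 bp in the Sox9cKO-labelled list, 970 bp in the Sox9null-labelled list, 2030 bp in the E12.5 control and 1054 bp in the E11.5 control. The Sox9cKO-labelled list and the E11.5 control thus shared the peaks at chr5:119679978-119681381 and chr5:119682268-119683941, and the other lists lacked them.

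Over its 200 kb window Tbx3 had the widest relative spread of the 4 genes. Covered length was 55.0 kb (13.3% of the window) in the Sox9cKO-labelled list and 10.2 kb (2.45%) in the Sox9null-labelled list, against 14.3 kb (3.45%) in the E12.5 control and 47.4 kb (11.4%) in the E11.5 control. Among all protein-coding genes these values lay at percentiles 95.7, 40.4, 49.2 and 95.4. Of 21 regions, 2 (9.52%) were marked in all 4 lists, and 8 (38.1%) in the Sox9cKO-labelled list and the E11.5 control alone, against 6.45% of regions in the genome. Of those 8, 3 lay in Tbx5 or within 20 kb of it, including chr5:119795135-119808473 and chr5:119827886-119845729, which measured 13339 and 17844 bp and scored 3100 in both lists that had them. The other 5 lay elsewhere, measured 920 to 1674 bp and scored at most 324. Tbx5 itself was marked in the E12.5 control by another peak, at chr5:119865861-119868086 (score 279), that no other list had.

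Leaving out Tbx5 with 20 kb on each side reduced the spread around Tbx3 but did not end it. Then 22.4 kb remained in the Sox9cKO-labelled list and 10.2 kb in the Sox9null-labelled list, against 12.1 kb in the E12.5 control and 15.7 kb in the E11.5 control. The order of the lists was the same as over the Tbx3 body. Left of Tbx3 the window was sparse: peaks covered 8.04 kb in the Sox9cKO-labelled list, 4.28 kb in the Sox9null-labelled list, 4.08 kb in the E12.5 control and 4.75 kb in the E11.5 control, partly in the block at the gene.

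**Figure D2:**
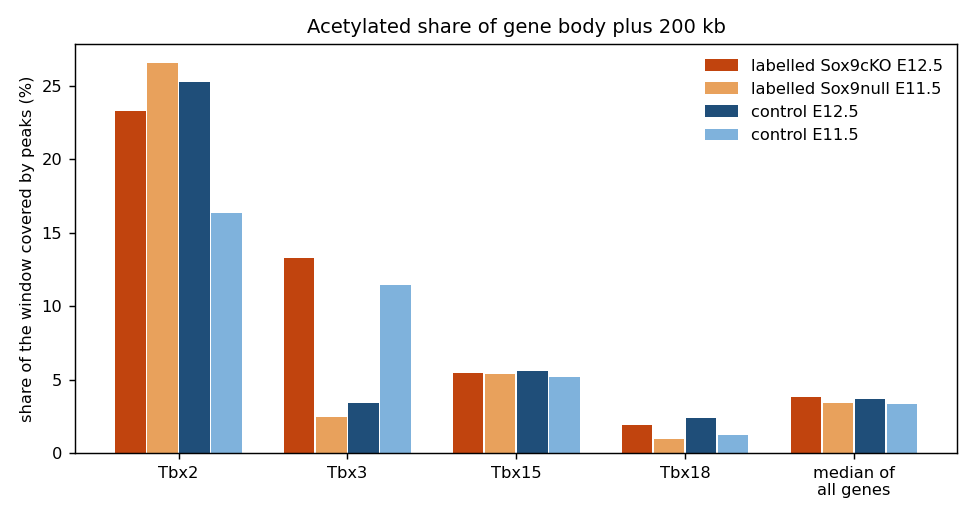
Share of each window (gene body plus 200 kb on each side) covered by H3K27ac peaks in percent, as bars for the 4 lists, with the median of 19789 protein-coding genes with a peak in the window at the right. Tbx2 lies between 16.4 and 26.5%, far above the medians of 3.34 to 3.80%, and Tbx3 is high in the Sox9cKO-labelled list and the E11.5 control and low in the other lists.

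Tbx15 (chromosome 3, 99240348 to 99354260, 113913 bp) was marked almost alike in all 4 lists. Its window had 28.1 kb (5.46%) in the Sox9cKO-labelled list, 27.6 kb (5.37%) in the Sox9null-labelled list, 28.8 kb (5.61%) in the E12.5 control and 26.6 kb (5.18%) in the E11.5 control. Lowest and highest list thus differed by 2.21 kb, against 41.5 kb around Tbx2. The largest stretch was 1 wide peak inside the gene, in the merged region chr3:99247098-99264108. It measured 16587 bp in the Sox9cKO-labelled list, 16619 bp in the Sox9null-labelled list, 16008 bp in the E12.5 control and 16341 bp in the E11.5 control. These were ranks 9, 29, 36 and 7 by width in their lists, and the peak scored 3100 in each.

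The region over the left end of Tbx15, chr3:99239091-99243712, scored 3100 in the Sox9cKO-labelled list, 1279 in the Sox9null-labelled list, 2033 in the E12.5 control and 2489 in the E11.5 control. By rank within each list these lay in the upper 7.94, 12.0, 8.67 and 6.73% in that order. Another region left of the gene, chr3:99233013-99236427, and one at the left end of Wars2, the mitochondrial tryptophanyl-tRNA synthetase gene, at chr3:99140349-99142598, were also in all 4 lists. These 4 regions of 11 (36.4%) lay within the upper 37.6% in every list by their best-scored peak. The other 7 regions were small, and none lay right of the gene. The region at chr3:99111126-99113560, 127 kb to the left, was the only one in the 4 windows found in both controls and in neither Sox9-deficient list, with scores of 121 in the E12.5 control and 98.5 in the E11.5 control. The right part of the Tbx15 body held a peak at chr3:99312060-99313348 in the Sox9cKO-labelled list (1289 bp) and the E11.5 control (648 bp), and another at chr3:99325398-99326446 in the Sox9null-labelled list alone.

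Tbx18 (chromosome 9, 87702800 to 87731260, 28461 bp, minus strand) had the least H3K27ac of the 4 genes. Its window had 8.37 kb (1.95%) in the Sox9cKO-labelled list and 4.20 kb (0.981%) in the Sox9null-labelled list, against 10.3 kb (2.41%) in the E12.5 control and 5.40 kb (1.26%) in the E11.5 control. All 4 shares were below the median of protein-coding genes in their list. Over gene body plus 20 kb, however, Tbx18 lay above the middle of all protein-coding genes in every list. Its percentiles were 83.7 (Sox9cKO-labelled), 58.6 (Sox9null-labelled), 90.4 (E12.5 control) and 79.0 (E11.5 control). The largest stretch sat at the start of the gene, where 1 region of the 5 in the window, chr9:87726621-87731601, was marked in all 4 lists. That peak measured 4968 bp in the Sox9cKO-labelled list (score 3100), 3089 bp in the Sox9null-labelled list (1609), 4700 bp in the E12.5 control (2744) and 4424 bp in the E11.5 control (3100). All 4 lay within the upper 8.75% of their list by score. The Sox9null-labelled list had the narrowest peak, with 9.73% of the gene body covered, against 16.3% in the Sox9cKO-labelled list, 15.3% in the E12.5 control and 15.4% in the E11.5 control.

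Upstream of Tbx18, the region chr9:87737815-87740962, 6.55 kb beyond the start in the lncRNA gene Gm36767, was marked over 1780 bp in the Sox9cKO-labelled list (score 306), 2977 bp in the E12.5 control and 972 bp in the E11.5 control. It was the 1 region of the window missing from the Sox9null-labelled list alone. A region 112 kb beyond the start, chr9:87843356-87844470, scored 50.8 in the Sox9cKO-labelled list, 89.0 in the Sox9null-labelled list and 68.0 in the E12.5 control. These lay within the upper 98.9, 77.6 and 89.3% of their lists. Behind the gene, chr9:87681874-87683365 was marked in the Sox9cKO-labelled list (score 141) and the E12.5 control (52.7), the 2 lists titled E12.5. The last region, chr9:87732644-87733431, was in the E12.5 control alone with a score of 58.0.

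**Figure D3:**
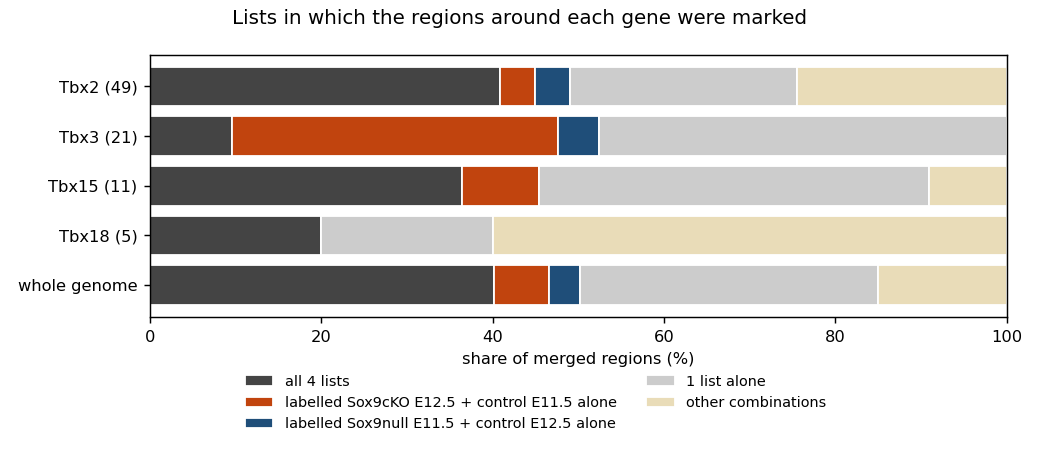
Share of merged regions in percent by the lists that marked them, for each window (number of regions in parentheses) and for the whole genome. In the Tbx3 window 38.1% of regions belong to the Sox9cKO-labelled list and the E11.5 control alone, against 6.45% in the genome, and the Tbx2 and Tbx15 windows hold 40.8 and 36.4% of regions marked in all 4 lists, against 40.1%.

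Over the 4 windows together, the Sox9cKO-labelled list marked 67 of the 86 regions, the Sox9null-labelled list 43, the E12.5 control 50 and the E11.5 control 47, while of all regions in the genome they marked 69.9, 55.1, 64.1 and 66.2%. The Sox9null-labelled list was the sparsest by both counts. In 1 list alone were 29 of the 86 regions, against 34.7% in the genome; these measured 505 to 2226 bp and scored at most 279. The Sox9null-labelled list and the E12.5 control alone shared 3, against 3.68%.

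Set against both controls, the Sox9-deficient lists showed no common direction over the 4 windows. Covered length averaged 101.9 kb in the deficient lists and 85.2 kb in the controls around Tbx2 (difference 16.7 kb). Around Tbx3 the averages were 32.6 and 30.8 kb (difference 1.73 kb), and around Tbx15 27.8 and 27.7 kb (difference 0.112 kb). Tbx18 had 6.29 kb in the deficient lists and 7.87 kb in the controls (difference -1.59 kb). In none of the 4 windows did both deficient lists lie above both controls, or both below them. Over all protein-coding genes with a peak in the window, 13.2% and 4.45% did. Instead, at Tbx3 the Sox9cKO-labelled list and the E11.5 control lay above both others, as for 28.8% of genes, and at Tbx2 they lay below both others, as for 21.0%. Without the E11.5 control the Tbx2 difference was -1.47 kb, and without the E12.5 control it was 34.9 kb. The Tbx3 difference ran from -20.7 kb without the Sox9cKO-labelled list to 24.1 kb without the Sox9null-labelled list. Those at Tbx15 (-0.992 to 1.22 kb) and Tbx18 (-4.06 to 0.889 kb) also changed sign with the list left out. Close to the gene the picture differed for Tbx2 and Tbx15, where both deficient lists exceeded both controls over gene body plus 20 kb, as for 16.1% of genes with a peak there. At Tbx2 the margin was small, with 20.92 kb in the lower deficient list (Sox9null-labelled) against 20.86 kb in the higher control (E12.5). For Tbx15 these values were 25.2 kb in the Sox9cKO-labelled list and 24.7 kb in the Sox9null-labelled list, against 23.3 kb in the E12.5 control and 23.9 kb in the E11.5 control.

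By label, the comparison at E12.5 gave a higher value at Tbx3 and the comparison at E11.5 a lower one. In the Sox9cKO-labelled list the Tbx3 window was covered 3.84-fold as much as in the E12.5 control, where 9.25% of genes were at least 1.5-fold higher and 7.32% at least 1.5-fold lower. In the Sox9null-labelled list it was covered 0.215-fold as much as in the E11.5 control, where 7.07% of genes were at least 1.5-fold lower. Much of both differences lay over Tbx5. Without Tbx5 plus 20 kb the ratios at Tbx3 were 1.85 at E12.5 and 0.647 at E11.5, and the differences were 10.3 and -5.55 kb, against 40.7 and -37.2 kb with it. Over the body plus 20 kb the ratios were 1.63 and 0.745. With the 2 deficient lists exchanged, as their deposited names have them, the ratios at Tbx3 were 0.711 at E12.5 and 1.16 at E11.5. The large ratios thus depended on which sample each list belongs to. At Tbx2 the ratios by label were 0.922 at E12.5 and 1.62 at E11.5, where 7.48% of genes were at least 1.5-fold higher, and with the lists exchanged they were 1.05 and 1.42. By label, the Tbx2 ratio at E11.5 was 1.41 after scaling and 1.17 over the body plus 20 kb, neither past 1.5-fold. Without Tbx4 plus 20 kb it was 1.89. Tbx15 lay between 0.957 and 1.05 both ways. Tbx18 had 0.809 at E12.5 and 0.779 at E11.5 by label, and 0.406 and 1.55 with the lists exchanged. Its ratios rest on little covered length, from 4.20 kb (Sox9null-labelled) to 10.3 kb (E12.5 control). The share of all genes past 1.5-fold was not computed for the exchanged lists.

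**Figure D4:**
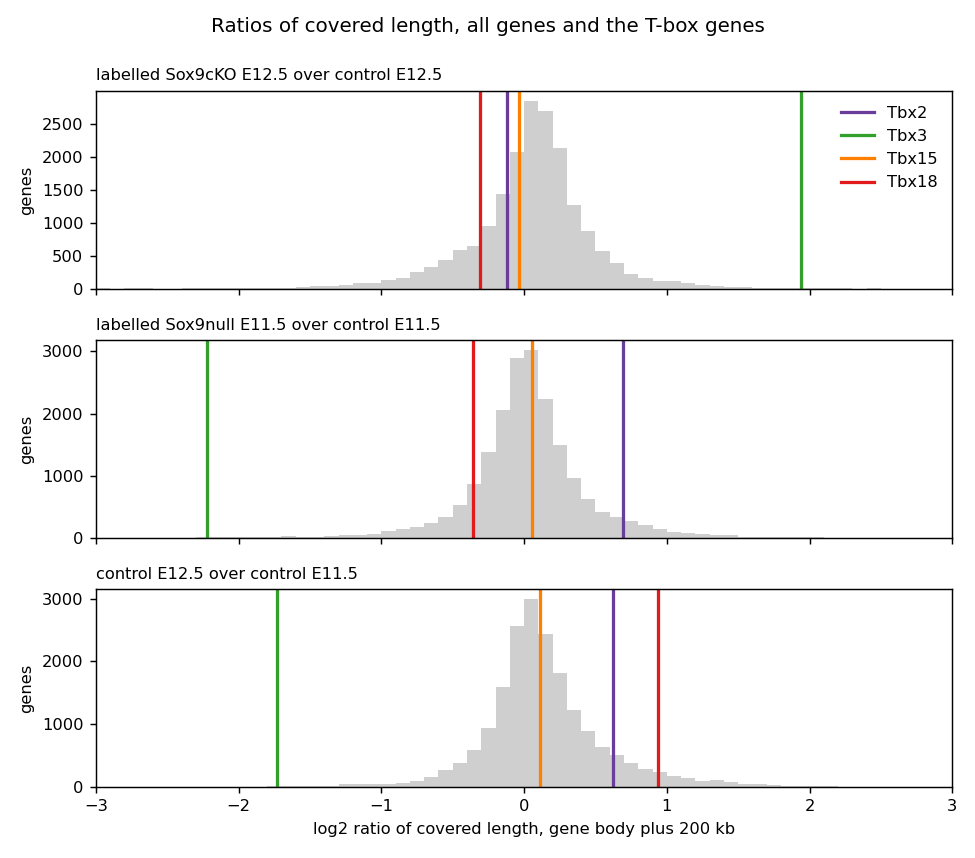
Log2 ratios of covered length over gene body plus 200 kb for 19071 protein-coding genes with a peak in the window in every list (grey, number of genes per bin of 0.1) and for the 4 T-box genes (lines). Tbx3 lies at 1.94 for the Sox9cKO-labelled list over the E12.5 control, at -2.22 for the Sox9null-labelled list over the E11.5 control and at -1.73 for the E12.5 over the E11.5 control.

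Between the controls, the windows of Tbx2 and Tbx18 were covered by more at E12.5 and that of Tbx3 by less. The E12.5 control had 1.54-fold the covered length of the E11.5 control around Tbx2 and 1.92-fold around Tbx18, where 12.3% of genes were at least 1.5-fold higher. Around Tbx3 it had 0.302-fold, where 4.76% of genes were at least 1.5-fold lower, and around Tbx15 1.08-fold. Without Tbx5 plus 20 kb the ratio at Tbx3 was 0.768, and over the body plus 20 kb it was 0.848, neither past 1.5-fold. At Tbx18 the difference of 4.95 kb was 0.276 kb with the upper 50% of peaks by score and 2.28 kb with equal numbers of peaks. Total covered length in the E12.5 control was 1.28-fold that of the E11.5 control (log2 0.36), and scaling to the totals moved the median log2 ratio of all genes from 0.09 to -0.27. Relative to the unscaled median the log2 ratios were 0.54 at Tbx2, -1.82 at Tbx3, 0.03 at Tbx15 and 0.85 at Tbx18. After scaling the ratio was 1.20 at Tbx2 and 1.496 at Tbx18, both below 1.5. Over the body plus 20 kb, unscaled, it was 1.17 at Tbx2 and 1.67 at Tbx18. The split of the lists by Tbx5 runs between these controls too. Stage and limb type thus cannot be told apart at Tbx2, Tbx3, Tbx15 or Tbx18.

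Over the family of 17 T-box genes, gene body plus 20 kb held a peak in at least 1 list for 14, and Tbx19, Tbx20 and Tbx22 held none. In 3 of the 14 (Tbx2, Tbx15 and Tbx21) both deficient lists exceeded both controls and in 0 both lay below, where 16.1% and 6.38% of genes did. The median difference over the 14 was 0.377 kb, against 0.118 kb over all genes with a peak. In 6 of the 14 (Tbx1, Tbx3, Tbx5, Tbx10, Tbr1 and Mga) both the Sox9cKO-labelled list and the E11.5 control lay above both others, where 27.6% of genes did, and in 2 (Tbx4 and Eomes) below both, where 20.5% did. At Mga, Tbr1 and Eomes the margin was small. Mga had 5.863 kb in the E11.5 control against 5.858 kb in the E12.5 control. Tbr1 had 2.822 kb in the E11.5 control against 2.778 kb in the Sox9null-labelled list. Eomes had 0.47 kb in the Sox9cKO-labelled list against 0.473 kb in the E12.5 control. Tbx1, best known from the pharynx, had 2.87 kb in the Sox9cKO-labelled list, 0 kb in the Sox9null-labelled list, 0 kb in the E12.5 control and 1.25 kb in the E11.5 control. Tbx6, known from presomitic mesoderm, had between 10.7 and 12.3 kb in all 4 lists. Its body measures 4066 bp, so most of that length lay in the flanks, whose other genes were not examined. Eomes and Tbxt, which act in gastrulation, had at most 0.489 and 0.8 kb.

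**Figure D5:**
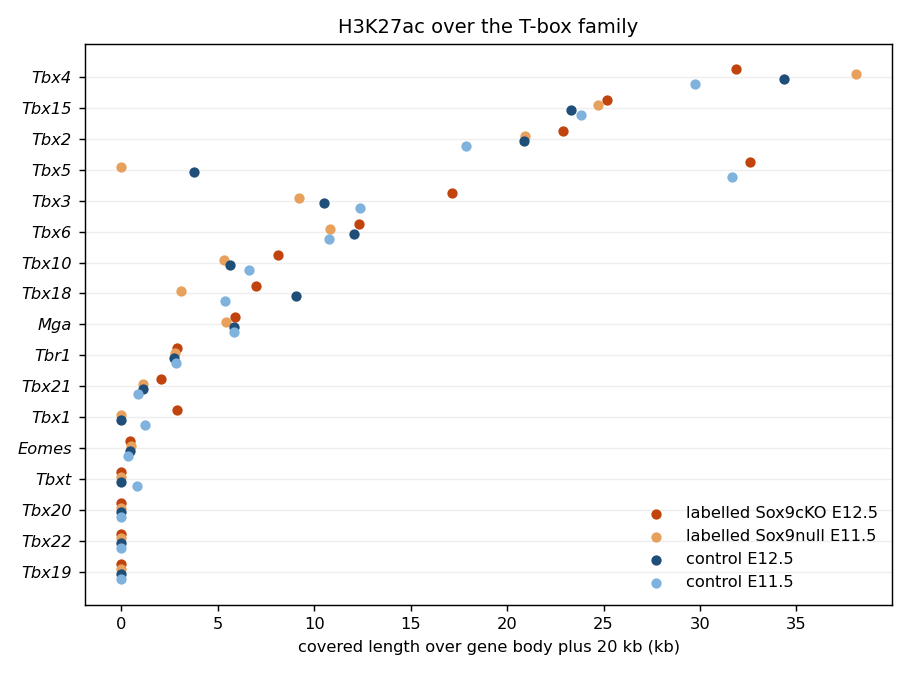
Length covered by H3K27ac peaks in kb over gene body plus 20 kb for the 17 T-box genes, with 1 point for each list, ordered by the mean of the 4 lists. Tbx15 and Tbx2 have the highest means after Tbx4, the points of Tbx5 lie far apart, and Tbx19, Tbx20 and Tbx22 are at 0 in all 4 lists.

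A list of 30 partner genes, chosen as limb signals and regulators, was measured over gene body plus 20 kb. The mean of the deficient lists was above that of the controls at 16 and below it at 14. The differences had a median of 0.0035 kb. In 2 (Hand2 and Hdac1) both deficient values lay above both controls and in 1 (Cdkn1a) below them, where 16.1% and 6.38% of genes did. In 10 the Sox9cKO-labelled list and the E11.5 control lay above both others and in 9 below both, where 27.6% and 20.5% of genes did. The largest gain was at Prrx2, a mesenchymal homeobox gene (40.5 kb in the Sox9cKO-labelled list, 44.7 kb in the Sox9null-labelled list, 40.8 kb in the E12.5 control and 30.1 kb in the E11.5 control). Hand2, an upstream regulator of sonic hedgehog, was among the next in size (mean difference 2.29 kb). The largest losses were at Gli3, which encodes a hedgehog effector (mean difference -3.63 kb), at Irx5 (-2.41 kb) and at Wnt5a, a signal for limb outgrowth (-1.07 kb). This order belongs to the 20 kb flanks: with 200 kb the mean difference was -1.01 kb at Gli3, -4.38 kb at Irx5 and 1.998 kb at Wnt5a, and the largest loss was at Prrx1 (-6.45 kb). At Gli3 the Sox9cKO-labelled list had 16.5 kb and the Sox9null-labelled list 19.6 kb, while the E12.5 control, the highest of the 4, had 28.6 kb and the E11.5 control 14.7 kb. For Irx5 the values were 7.32 and 3.01 kb in the Sox9cKO-labelled and Sox9null-labelled lists, against 8.89 and 6.26 kb in the E12.5 and E11.5 controls.

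Among the T-box and partner genes on other chromosomes, the profile over the 4 lists most like that of Tbx3 was that of Meis1, followed by Meis2 and Tbx10. Likeness was the Euclidean distance between the shares of covered length over gene body plus 20 kb that fell in each list, and it was 0.0341, 0.0365 and 0.0387 for these 3 genes. Meis1, a proximal limb homeobox gene, had 19.04 kb in the Sox9cKO-labelled list, 10.4 kb in the Sox9null-labelled list, 10.6 kb in the E12.5 control and 15.4 kb in the E11.5 control. For Tbx2 the closest were Bmp2 (0.0133), Hand2 (0.0258) and Tbx6 (0.0284). For Tbx15 they were Hdac1 (0.00723), Tbr1 (0.0101) and Msx1 (0.0239), all with nearly equal shares. For Tbx18 they were Irx5 (0.0333), Cdkn1a (0.1001) and Ptch1 (0.139), the last being farther than any other named here. These distances rest on 4 values a gene, with 37 to 39 genes compared, and are descriptions.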

How the data were processed

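Of the 24 samples of the series, 4 H3K27ac libraries, each with its list of peaks, were analysed, and the other 20 samples are not analysed here. The authors deposited 1 list per sample with the position of each peak and a score, whose meaning no header gives. Per the submitters' processing notes the build was mm10, and the tools named are CASAVA 1.8 and deepTools. The names of peaks carry MACS. For the aligner, the use of an input and the version and settings of MACS, the sources used here give nothing. Gene positions came from RefSeq GRCm38.p6, whose gene table gives no strand; strands came from its start-site sequences.

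Covered length was the bp of peaks, counted once, in the gene body plus 200 kb for the members' windows, and in the body plus 20 kb for the T-box family, the partners, the markers and the likeness of profiles. Peaks overlapping by 1 bp were merged into regions across lists. Ranks by score count ties (3100 is the most frequent high score) as the whole tied block. The members, gene lists, alternatives and naming rule were chosen with earlier results of these data known. The rule names the members and genes in their windows, the T-box family, the 3 largest gains and losses among 30 partners, the 3 most alike genes, and the strongest, widest and control-only or deficient-only regions. One of the gains is not reported here. Other regions were chosen after their values were seen. With 1 list per group, and 2 deficient lists that differ in genotype and stage, no test was made. The counting was tested on simulated peaks. Python 3.11.15, numpy 2.4.6, pandas 2.3.3 and matplotlib 3.10.9 were used.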

Additional observations from a re-analysis of the deposited data

Results flagged for a closer look

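In 3 of the 4 windows the difference between the Sox9-deficient list and the control of the same titled stage pointed opposite ways at the 2 stages. At Tbx3 it was 40.7 kb for the Sox9cKO-labelled list minus the E12.5 control and -37.2 kb for the Sox9null-labelled list minus the E11.5 control. At Tbx2 the same differences were -8.07 kb at E12.5 and 41.5 kb at E11.5, and at Tbx15 -0.759 and 0.983 kb. Each rests on 1 list against 1 list, so the difference between stages was not tested. With the deficient lists exchanged, the differences at E12.5 and E11.5 were -4.14 and 7.60 kb at Tbx3, 5.13 and 28.3 kb at Tbx2, and -1.23 and 1.45 kb at Tbx15. Over gene body plus 20 kb only Tbx3 kept opposite signs (6.63 and -3.15 kb), while Tbx2 had 2.01 and 3.08 kb and Tbx15 1.86 and 0.883 kb. After scaling Tbx2 had 1.70 and 31.6 kb.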

How the results depend on the processing

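Depth in reads is unknown and each group has 1 list, so a peak missing from a list was not called there and is not shown to lack the mark. No paired analysis was possible because the results come from no test, with a single list in each group; differences within a titled stage are given as values. The mean difference between deficient lists and controls at Tbx2 stayed positive under every alternative except leaving out the E11.5 control, with 9.0045 kb for 100 kb flanks and 2.54 kb for 20 kb. Leaving out 1 list gave -1.47 to 34.9 kb at Tbx2, -20.7 to 24.1 kb at Tbx3, -0.992 to 1.22 kb at Tbx15 and -4.06 to 0.889 kb at Tbx18. Scaled to the totals it was -1.31 kb at Tbx3 and -0.492 kb at Tbx15. Keeping only the upper 50% of peaks by score, it was 0.591 kb at Tbx3, 0.504 kb at Tbx15 and 0.357 kb at Tbx18. With the same number of top peaks it was 0.929, 0.475 and -0.479 kb at these genes. At Tbx15 it was 0.899 kb with 100 kb flanks and 1.37 kb with 20 kb. Regions marked in all 4 lists at Tbx2 numbered 8 with the upper 50%, 13 with 100 kb and 2 with 20 kb. At Tbx3 there was 1 with the upper 50%. The other counts of such regions stayed within 1.5-fold.

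At E12.5 by label, Sox9cKO minus control turned to 2.01 kb at Tbx2 with 20 kb flanks, 1.70 kb after scaling and 5.13 kb with the lists exchanged, and at Tbx3 to -4.14 kb with the lists exchanged. At Tbx15 it turned to 0.323 kb with the upper 50%, 0.713 and 1.86 kb with 100 and 20 kb flanks, and 1.95 kb after scaling, and at Tbx18 to 2.05 kb with the upper 50% and 0.235 kb with the same number of peaks. At E11.5, Sox9null minus control turned to 7.60 kb at Tbx3 and 2.97 kb at Tbx18 with the lists exchanged, and to -2.93 kb at Tbx15 after scaling. For E12.5 minus E11.5 in controls, the Tbx2 difference was 15.7 kb after scaling, against 36.4 kb, and Tbx15 turned to -0.543 kb with 20 kb flanks and -4.72 kb after scaling. The cause of these changes was not tested, beyond the lists, peaks or lengths that each alternative takes.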
